A study of Mus musculus with 9 samples.

Results

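Chemokine and sphingosine receptors tell germinal center B cells where to go, and the genes described here encode the parts that carry that signal and the parts that end it. The set holds 10 of the 23700 entries of each gene table, taken by symbol: the 7 regulators of G protein signalling Rgs1, Rgs2, Rgs10, Rgs13, Rgs14, Rgs16 and Rgs19, the G protein alpha subunits Gnai2 and Gna13, and the exchange factor Arhgef1. The libraries compared were 3 of Foxo1-deficient germinal center B cells, 3 of wild-type dark zone (DZ) cells and 3 of wild-type light zone (LZ) cells. The Foxo1-deficient cells were Foxo1(f/f) and CD45.1/2, and the DZ and LZ cells were Foxo1(+/+) and CD45.1/1. Both kinds carried ERT2cre(KI/+), a tamoxifen-inducible Cre, and B1-8hi(KI/+), a heavy chain that gives high affinity for the hapten NP. Equal parts of both had been moved into C57BL/6 recipients, which were immunized with NP-CGG in alum on day 0 and given tamoxifen by mouth on days 7, 8 and 9, and on day 12 about 10000 cells per library were taken from spleen by a gate on B220+ NP+ cells that were GL7+ and CD38-. DZ cells were also gated as CD86lo CXCR4hi and LZ cells as CD86hi CXCR4lo, while Foxo1-deficient cells had no zone gate. Genotype and gate therefore change together in each comparison with Foxo1-deficient cells and cannot be told apart. The labels list a CD45.2-negative gate for the CD45.1/2 cells too, and do not give the age of the mice or say that replicates came from separate animals. The p-values therefore set each difference only against the spread among these samples, and that spread may be technical.

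A G protein carries a signal while its alpha subunit holds GTP. Rgs proteins speed the hydrolysis of that GTP and so act as brakes. Gnai2 encodes the inhibitory alpha subunit through which chemokine receptors drive lymphocyte migration. Gna13 encodes the alpha subunit used by the sphingosine receptor S1pr2, and it activates Arhgef1, an arm that holds germinal center B cells inside the follicle.

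Values are FPKM, fragment numbers scaled by transcript length and by the library, which can be compared between genes. Changes are differences of mean log2(FPKM + 1), which understates the change of low genes. Adjusted p-values are Benjamini-Hochberg values of limma over all 9982 genes tested, two-sided, with a threshold of 0.05. Foxo1, the targeted gene, stood at 3.01, 1.79 and 0.81 FPKM in the Foxo1-deficient libraries, at 24.5, 19.5 and 19.1 FPKM in DZ and at 14.8, 18.7 and 22.1 FPKM in LZ, a change of -2.82 against LZ (adjusted p = 0.00105 from limma). Cd86, used for the sort, was 56.5 ± 2.05 FPKM in Foxo1-deficient cells, 15.8 ± 2.97 FPKM in DZ and 51.7 ± 7.01 FPKM in LZ (SD, n = 3 each). All 12 germinal center B cell markers had entries, and their summed FPKM was 2207 to 2604 in Foxo1-deficient cells, 1775 to 2135 in DZ and 2086 to 2308 in LZ. Plasma cell markers summed to 236 to 365, 190 to 297 and 140 to 180 FPKM in the same order of groups, naive and memory B cell markers to 104 to 113, 44.6 to 61.5 and 196 to 269, and stress genes to 277 to 311, 283 to 340 and 339 to 396. Igj made up most of the plasma cell sum, with means of 254, 200 and 88.8 FPKM. Of the plasma cell markers, Irf4 and Derl3 had their highest mean in LZ and the others in Foxo1-deficient cells. Hsp90aa1 made up most of the stress sum, with means of 187, 226 and 251 FPKM. Of the stress genes, Fos, Junb, Ier3, Atf3, Dusp1 and Nr4a1 had their highest mean in Foxo1-deficient cells, Jund in DZ and the others in LZ. T cell markers summed to 15.0 to 25.5, 11.7 to 20.1 and 27.1 to 28.6 FPKM, with Cd3e, Cd3g and Cd4 listed at 0 in all 9 libraries, stromal markers to 9.64 to 18.2, 5.69 to 7.79 and 7.44 to 13.1, and NK cell markers to at most 1.20 in any library. Lck made up most of the T cell sum, with means of 19.0 FPKM in Foxo1-deficient cells, 14.5 in DZ and 26.7 in LZ. Markers of other spleen cells stood apart in the Foxo1-deficient libraries, and their values are given with Rgs10. The depth of the libraries is not stated. The half-width of Cufflinks' deposited interval was 8.37% to 12.1% of its midpoint for Rgs13, 14.2% to 34.6% for Rgs10 and 5.22% to 6.48% for Gnai2 and Gna13, and the level of that interval is not stated. Of the 90 values of the 10 genes, 17 lay outside their own deposited interval, all of Rgs10, Rgs13 and Gnai2, so the intervals are no error bars of the FPKM.

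Foxo1-deficient cells differed from both zones in 2 of the Rgs genes, in opposite directions. Rgs13 was lower and Rgs10 higher in Foxo1-deficient cells than in DZ or LZ cells, while Gnai2, Gna13, Arhgef1 and the other tested Rgs genes passed in no comparison. Of the 10 genes, 8 met the filter of at least 1 FPKM in at least 3 libraries. Against LZ, 1 rose and 1 fell, where 1.57% of all tested genes passed, 0.711% higher and 0.862% lower. Against DZ, 1 rose and 1 fell, where 2.88% passed, 2.1% higher and 0.771% lower. Passing against both zones in the same direction was met by 2 of the 8 and by 0.721% of all tested genes, 0.551% higher and 0.17% lower. In each fit without 1 library it was met by 0 or 1 of the 8, and by 17 to 42 of all genes in place of 72. Between DZ and LZ limma called 0 of the 8, where 1.91% of all genes passed, 0.551% higher and 1.36% lower in DZ, and 0 of the 8 had an unadjusted p under 0.05, where 1536 of the 9982 genes had one.

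**Figure D1:**
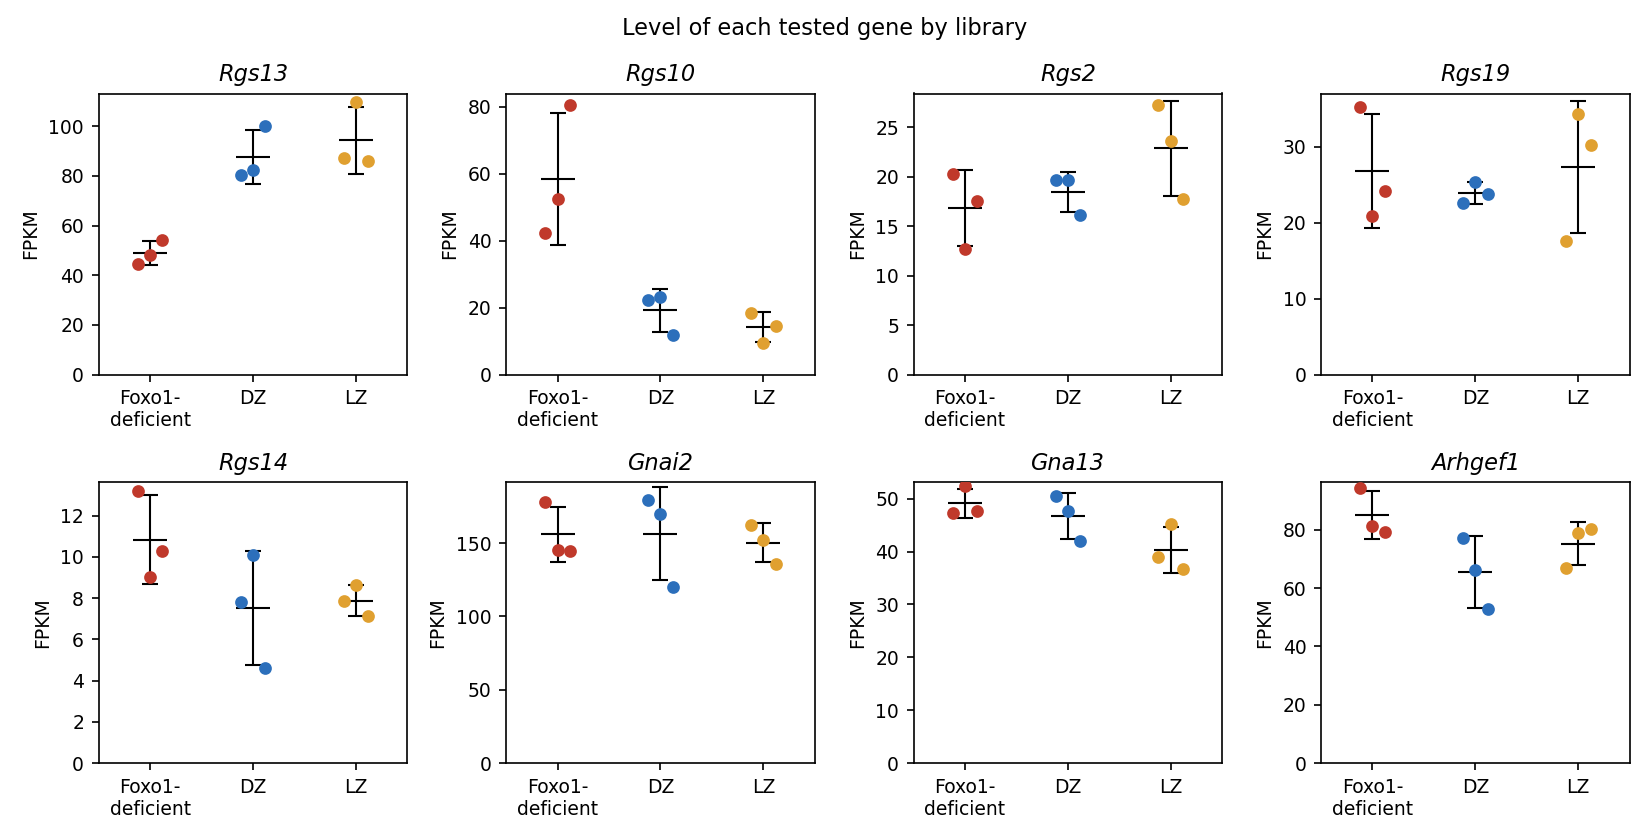
FPKM of the 8 tested genes in each library, with points for the 3 replicates and bars for mean ± SD of each group. Rgs13 lies below all 6 wild-type libraries in the 3 Foxo1-deficient ones and Rgs10 lies above all 6, while the other genes overlap with at least 1 zone.

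The promoters of Rgs13 and Rgs10 are shown because these genes moved against both zones and Foxo1 is a DNA-binding factor. They are RefSeq windows of 300 bases on GRCm38.p6, from 250 bases before to 50 after the start, each on the minus strand and written 5′ to 3′ on the strand of the gene. The Rgs13 window is chr1:144177323-144177622 and the Rgs10 window chr7:128418123-128418422. Capitals mark E-boxes (CANNTG), and the core Foxo motif GTAAACA would also be in capitals, each searched on both strands with overlaps allowed.
Rgs13: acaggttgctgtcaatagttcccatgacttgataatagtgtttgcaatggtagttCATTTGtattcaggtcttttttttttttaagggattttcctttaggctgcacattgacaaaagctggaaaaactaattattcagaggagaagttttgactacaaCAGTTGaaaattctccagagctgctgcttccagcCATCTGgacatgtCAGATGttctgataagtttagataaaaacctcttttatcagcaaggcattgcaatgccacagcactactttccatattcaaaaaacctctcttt
Rgs10: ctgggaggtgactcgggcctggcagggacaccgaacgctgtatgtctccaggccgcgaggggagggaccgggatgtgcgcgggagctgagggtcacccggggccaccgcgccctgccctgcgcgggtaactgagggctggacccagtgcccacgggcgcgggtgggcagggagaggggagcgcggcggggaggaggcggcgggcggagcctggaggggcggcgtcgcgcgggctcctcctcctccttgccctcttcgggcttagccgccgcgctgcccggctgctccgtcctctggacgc
The Rgs13 window held 4 E-boxes and the Rgs10 window 0, and at least 1 stood in 72.3% of the 32851 windows searched. Windows of 1 chromosome, which holds none of the 10 genes, were left out of that number. Neither the Rgs13 nor the Rgs10 window held GTAAACA, which stood in 3.65% of the windows searched, nor did any of the 10 windows matched to 7 of the 10 genes. The Rgs13 and Rgs10 windows differed in base composition, with a GC content of 36.7% for Rgs13 and 76.0% for Rgs10 against a median of 52.7% over the windows searched. No match says only that these letters are not in these windows.

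Rgs13, a small regulator of the R4 family that dampens responses to Cxcr4 and Cxcr5 ligands and is known for its expression in germinal center B cells, was the most abundant Rgs gene of the wild-type libraries. It stood at 44.6, 48.1 and 54.0 FPKM in the Foxo1-deficient libraries, at 80.2, 82.3 and 100.01 FPKM in DZ and at 87.2, 109.8 and 85.8 FPKM in LZ. Every Foxo1-deficient library was below every wild-type library, and the zones overlapped. The log2 change against LZ was -0.93 (SE 0.159, adjusted p = 0.0174 from limma), and that against DZ was -0.82 (SE 0.159, adjusted p = 0.0184). DZ minus LZ gave -0.10, with a 95% interval from -0.45 to 0.24 (adjusted p = 0.83). The call against LZ was lost without LZ replicate 1 or 2 or Foxo1-deficient replicate 1 or 2, with adjusted p from 0.0521 to 0.071, and that against DZ without any 1 DZ library or Foxo1-deficient replicate 1 or 2, with adjusted p from 0.0519 to 0.0725. It was also lost in both comparisons when limma's prior had no intensity trend, while the change stayed between -1 and -0.72 in every fit with 1 library left out.

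Rgs10, a small regulator of the R12 family that acts on Gi subunits (chromosome 7, 135517138 to 135561686 in the mm9 coordinates of the files), moved the other way. It stood at 42.3, 52.4 and 80.5 FPKM in the Foxo1-deficient libraries, at 22.4, 23.3 and 11.8 FPKM in DZ and at 18.6, 9.44 and 14.7 FPKM in LZ. The lowest Foxo1-deficient library was above the highest wild-type library, the Foxo1-deficient libraries were spread widely, and DZ and LZ overlapped. It rose by 1.96 against LZ (SE 0.324, adjusted p = 0.0148 from limma) and by 1.56 against DZ (SE 0.324, adjusted p = 0.0266), and DZ minus LZ gave 0.40, with an interval from -0.32 to 1.11 (adjusted p = 0.633). The call against LZ was lost without LZ replicate 2 or 3 or Foxo1-deficient replicate 2 or 3, with adjusted p from 0.05 to 0.062. That against DZ was lost without any 1 DZ library or Foxo1-deficient replicate 2 or 3, with adjusted p from 0.0502 to 0.0893, with no filter on low genes (adjusted p = 0.077), with the replicate number as a block (adjusted p = 0.0523) and with no intensity trend (adjusted p = 0.0559). Across the fits without 1 library the change was 1.71 to 2.17 against LZ and 1.27 to 1.77 against DZ.

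Markers of macrophages and dendritic cells rose in the same libraries as Rgs10. Of 13 such markers with an entry, 9 stood above all 6 wild-type libraries in each Foxo1-deficient library. Among all tested genes, Foxo1-deficient values did not overlap with LZ in 17.5% and with DZ in 23.1%, in either direction. The share above both zones was not counted. Of the other markers, Emr1 overlapped with DZ, and C1qa was at 0 in Foxo1-deficient replicate 1. C1qb was at 0 in all Foxo1-deficient libraries. The summed FPKM of the whole list was 113, 136 and 242 in the Foxo1-deficient libraries, 6.74, 6.43 and 7.34 in DZ and 17.2, 16.9 and 11.1 in LZ. Lyz2, a myeloid lysozyme, was 51.6, 61.2 and 126.7 FPKM in the Foxo1-deficient libraries and at most 0.17 FPKM in any wild-type library. The defining markers Csf1r and Tyrobp were listed at 0 in all 6 wild-type libraries, and Cd14 in all 9 libraries. Neutrophil markers summed to 88.6 to 144 FPKM in Foxo1-deficient cells, 2.30 to 4.52 in DZ and 4.12 to 6.54 in LZ. S100a8 and S100a9 made up most of that sum in Foxo1-deficient cells, at means of 40.1 and 63.2 FPKM. Csf3r was also above all 6 wild-type libraries, while Cxcr2 overlapped with LZ. Elane and Mpo were listed at 0 in all 9 libraries. Ngp and Camp were above 0 only in Foxo1-deficient replicate 2, and Retnlg only in replicate 1. Ltf was at 0 in Foxo1-deficient replicate 1 and Mmp8 in replicate 2. Erythroid and platelet markers summed to 166 to 544, 12.9 to 21.7 and 21.9 to 45.4 FPKM in the same order of groups. The globins Hbb-b2 and Beta-s made up most of the latter sum, at means of 123 and 173 FPKM in Foxo1-deficient cells. The platelet markers Pf4 and Ppbp were listed at 0 in all 9 libraries and Gp9 in all Foxo1-deficient ones, and Itga2b was at most 0.33 FPKM. Both the Rgs10 level and the macrophage sum were highest in Foxo1-deficient replicate 3 and lowest in replicate 1, and the part of these cells in the Rgs10 result was not tested. In such pooled cells, more cells of a type and more RNA per cell cannot be told apart.

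**Figure D2:**
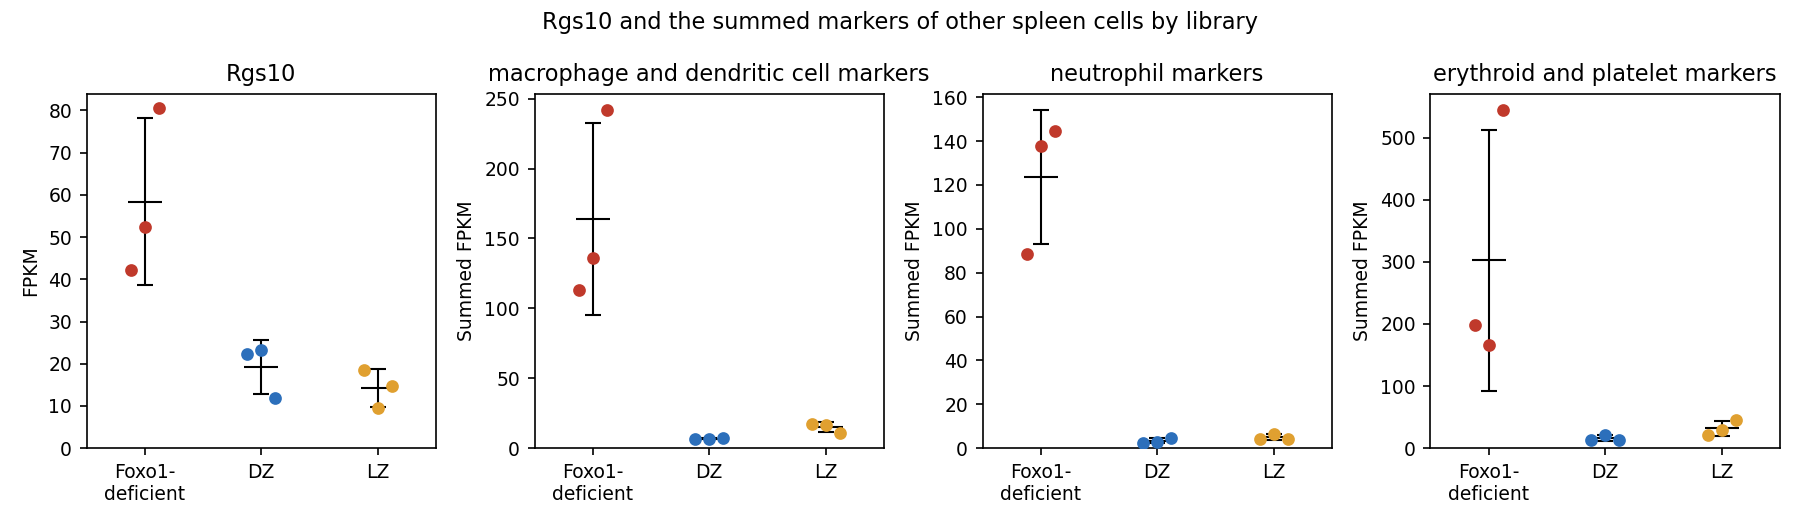
FPKM of Rgs10 and summed FPKM of the macrophage and dendritic cell, neutrophil, and erythroid and platelet marker lists, with points for libraries and bars for mean ± SD. All 4 quantities are higher in each Foxo1-deficient library than in every DZ and LZ library.

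The change in Rgs13 and Rgs10 altered the make-up of the summed FPKM of the 7 listed Rgs genes more than the sum itself. The summed FPKM of the 7 Rgs genes was 162 ± 22.3 in Foxo1-deficient cells, 157 ± 3.93 in DZ and 167 ± 16.6 in LZ (mean ± SD, n = 3 each), and the groups overlapped. Rgs13 made up 28.7% to 33.6% of that sum in Foxo1-deficient cells, 51.2% to 63.9% in DZ and 55.0% to 59.1% in LZ. Rgs10 made up 27.2% to 43.2% in Foxo1-deficient cells, 7.57% to 14.6% in DZ and 5.08% to 11.7% in LZ. These shares describe the same values as the tests above, and the part of other spleen cells in the Rgs10 share was not tested.

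Rgs13 lies on chromosome 1 from 145985796 to 146024502 in the mm9 coordinates of the files, between Rgs2 (145846467 to 145851279) and Rgs1 (146091798 to 146096234), about 135 and 67 kb from them. Of these neighbours, Rgs2 was tested and did not pass, and Rgs1 was too low to be tested. Rgs2, an R4 regulator that prefers Gq subunits, stood at 20.3, 12.7 and 17.5 FPKM in Foxo1-deficient cells, at 19.7, 19.6 and 16.2 FPKM in DZ and at 27.2, 23.6 and 17.7 FPKM in LZ. The 3 groups overlapped, with a change of -0.42 against LZ (interval -0.92 to 0.07, adjusted p = 0.448 from limma) and -0.15 against DZ (interval -0.65 to 0.35, adjusted p = 0.795). Rgs1, another R4 brake on chemokine responses, was listed at 0 in 6 of 9 libraries, and at 0.23 FPKM in DZ replicate 1, 0.13 in LZ replicate 1 and 0.14 in LZ replicate 3. Rgs16, also of the R4 family, lies farther along chromosome 1 (155587482 to 155592598) and was listed at 0 in all 9 libraries. Neither Rgs1 nor Rgs16 met the filter, although the status of both was OK in all 9 libraries. A 0 in such tables need not mean that RNA was absent, so no fold is given for them.

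Rgs19 and Rgs14 completed the measured brakes. Rgs19, of the RZ family (chromosome 2, 181423127 to 181428629), stood at 35.2, 20.9 and 24.1 FPKM in Foxo1-deficient cells, at 22.6, 25.4 and 23.8 FPKM in DZ and at 17.5, 34.3 and 30.2 FPKM in LZ, where the Foxo1-deficient and LZ values were more spread than those of DZ. Its change was -0.01 against LZ (interval -0.59 to 0.56) and 0.12 against DZ (interval -0.45 to 0.70). Rgs14, an R12 regulator that also binds Ras-like GTPases (chromosome 13, 55471092 to 55486048), stood at 13.2, 9.01 and 10.3 FPKM in Foxo1-deficient cells, at 7.83, 10.1 and 4.63 FPKM in DZ and at 7.86, 8.63 and 7.12 FPKM in LZ. The Foxo1-deficient libraries were all above those of LZ but overlapped with DZ, with changes of 0.40 against LZ (adjusted p = 0.572 from limma) and 0.51 against DZ (adjusted p = 0.406).

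The transducers passed in none of the 3 comparisons. Gnai2 (chromosome 9, 107516468 to 107537673) had the highest FPKM of the set in every library, and its mean ranked 209 of the 9982 tested genes. It stood at 177.9, 145.5 and 144.6 FPKM in Foxo1-deficient cells, at 179.4, 170.0 and 120.3 FPKM in DZ and at 162.6, 152.3 and 136.0 FPKM in LZ, and all 3 groups overlapped. Its change was 0.05 against LZ, with an interval from -0.32 to 0.43, and 0.01 against DZ, with an interval from -0.37 to 0.39, so larger changes in either direction lie outside these intervals while smaller ones were not resolved.

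Gna13 and Arhgef1 form the arm that confines germinal center B cells. Gna13 (chromosome 11, 109224107 to 109262683) stood at 47.4, 52.3 and 47.6 FPKM in Foxo1-deficient cells, at 50.5, 47.7 and 42.0 FPKM in DZ and at 39.0, 45.2 and 36.6 FPKM in LZ. Its Foxo1-deficient libraries were all above those of LZ, but the change of 0.28 did not pass (interval -0.05 to 0.62, adjusted p = 0.449 from limma), and against DZ it was 0.07 (interval -0.26 to 0.41). Arhgef1 (chromosome 7, 25688004 to 25711610) stood at 94.2, 81.3 and 79.2 FPKM in Foxo1-deficient cells, at 77.3, 66.2 and 52.9 FPKM in DZ and at 66.7, 78.8 and 80.1 FPKM in LZ. It was above all DZ libraries in each Foxo1-deficient library, with a change of 0.38 that did not pass (interval 0.02 to 0.75, adjusted p = 0.287), and overlapped with LZ (change 0.17, adjusted p = 0.706).

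Groups that did not overlap were seen for 4 of the 8 tested genes in Foxo1-deficient against LZ cells, where 17.5% of all tested genes did not overlap, for 3 of 8 against DZ (23.1% of all genes) and for 0 of 8 between DZ and LZ (22.2% of all genes). Gnai2, Arhgef1 and Rgs14 had their lowest value of the 9 libraries in DZ replicate 3, whose summed FPKM over genes with a single entry was 244867, against 295069 to 342627 in the other 8 libraries. The median change of all tested genes was -0.02 for Foxo1-deficient minus LZ, 0.12 for Foxo1-deficient minus DZ and -0.15 for DZ minus LZ. Relative to these medians Rgs13 stood at -0.91 against LZ and -0.95 against DZ, Rgs10 at 1.98 and 1.44, and Arhgef1 at 0.19 and 0.26.

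**Figure D3:**
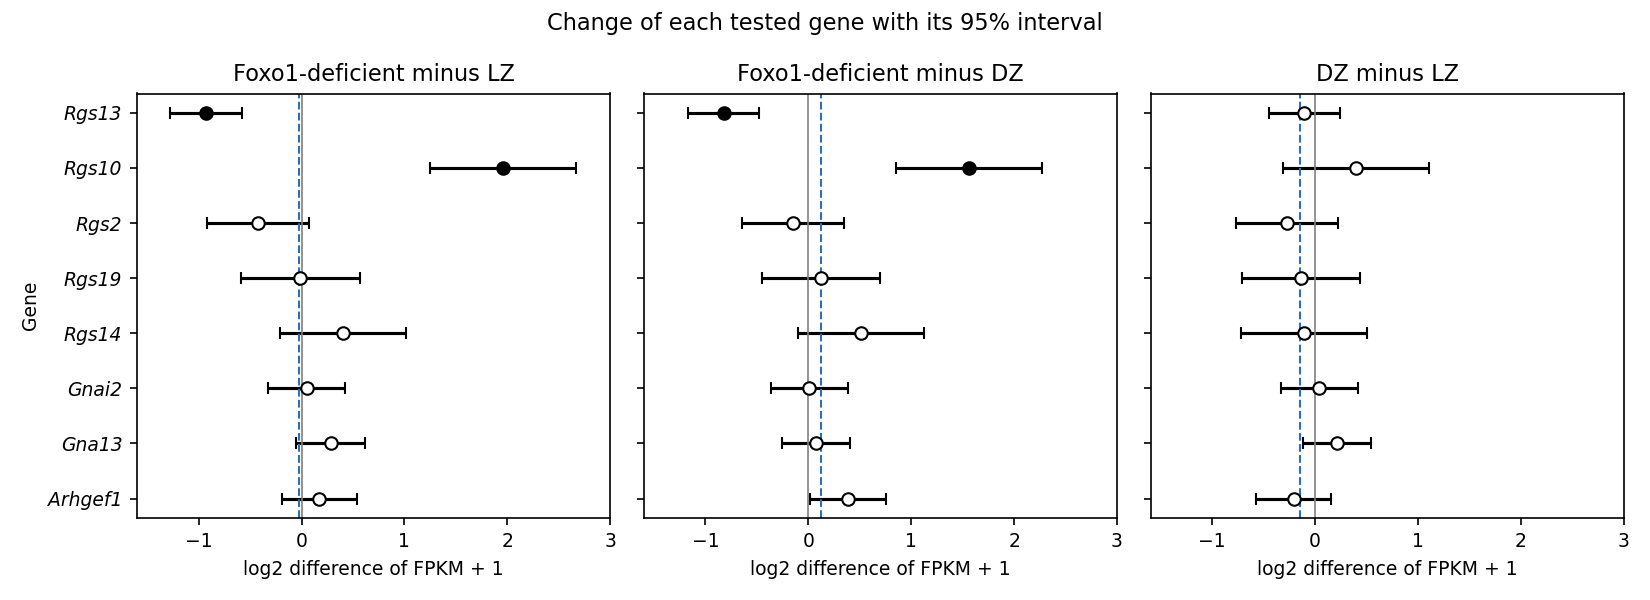
Change of log2(FPKM + 1) for the 8 tested genes in the 3 comparisons, with 95% limma intervals, filled points for an adjusted p under 0.05 and a dashed line at the median of all tested genes. Rgs13 and Rgs10 are the filled points, in both comparisons with Foxo1-deficient cells and at -0.93 and 1.96 against LZ, and no point is filled for DZ minus LZ.

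The rest of the pathway was read from lists of related genes. Of 18 other Rgs family genes with an entry, 4 met the filter and 0 passed in any comparison, with a median change of 0.23 against LZ and 0.16 against DZ in Foxo1-deficient cells. The medians of all tested genes were -0.02 and 0.12. Of all tested genes, 1.57% passed against LZ, 2.88% against DZ and 1.91% between DZ and LZ, so lists this short can hold 0 calls at those shares. Of 14 other G alpha subunits 8 were tested with 0 passing and medians of -0.03 against LZ and -0.12 against DZ, and of 17 beta and gamma subunits 8, with 0 passing and medians of 0.08 and -0.02. Of 12 tested receptor kinases, arrestins and G protein chaperones 0 passed, with medians of 0.40 against LZ and 0.35 against DZ. Gnas, the stimulatory alpha subunit and the most abundant of its list, was named after its values were seen. It stood at 256, 240 and 239 FPKM in Foxo1-deficient cells, at 354, 354 and 281 FPKM in DZ and at 290, 243 and 256 FPKM in LZ, a change of -0.42 against DZ that did not pass (adjusted p = 0.141 from limma).

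Among 18 tested effectors of Gi and of beta-gamma subunits, Plcb2, a phospholipase activated by G proteins, was the 1 gene that passed. It passed against DZ, where 2.88% of all tested genes did. The median change of the list was 0.20 against LZ and 0.27 against DZ, beside -0.02 and 0.12 for all tested genes. Plcb2 stood at 7.75, 2.64 and 10.0 FPKM in Foxo1-deficient cells and at 1.31, 1.24 and 0.56 FPKM in DZ, a rise of 1.82 (SE 0.41, adjusted p = 0.0396 from limma). In LZ it stood at 3.60, 5.90 and 4.81 FPKM. Its Foxo1-deficient values thus spanned those of LZ.

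Of 21 tested receptors upstream, those that passed in any comparison were S1pr3, the sort gene Cxcr4, Ccr6 and Ptafr. Of all tested genes, 1.91% passed for DZ minus LZ, 1.57% for Foxo1-deficient minus LZ and 2.88% for Foxo1-deficient minus DZ. Ccr6 and Ptafr met the filter only through the single group in which they were above 0, so they had to differ and are given by their values alone. S1pr2, the receptor that feeds Gna13, was 88.4, 60.4 and 82.6 FPKM in Foxo1-deficient cells, 69.8, 67.5 and 53.6 FPKM in DZ and 51.6, 49.97 and 62.6 FPKM in LZ, with no pass (adjusted p from 0.277 to 0.658 from limma). Cxcr4, which was used for the sort, was 22.3 ± 4.10 FPKM in Foxo1-deficient cells, 72.5 ± 11.2 FPKM in DZ and 33.3 ± 4.48 FPKM in LZ (SD, n = 3 each). S1pr3 was 14.4, 10.4 and 13.9 FPKM in Foxo1-deficient cells, 4.03, 5.19 and 4.32 FPKM in DZ and 18.2, 13.2 and 17.5 FPKM in LZ, so that DZ alone was low (change -1.64 for DZ minus LZ, adjusted p = 0.0056, and 1.32 for Foxo1-deficient minus DZ, adjusted p = 0.011, from limma). Ccr6, a chemokine receptor of B cells, was listed at 0 in all Foxo1-deficient and DZ libraries and stood at 1.07, 3.13 and 3.11 FPKM in LZ. Ptafr, the receptor of platelet-activating factor, stood at 2.86, 1.63 and 1.89 FPKM in the Foxo1-deficient libraries, where the macrophage markers also stood higher, and was listed at 0 in all 6 wild-type libraries.

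The genes with the profile most like that of a passing member were found by the root mean square difference, over the 9 libraries, between log2(FPKM + 1) profiles centred on their own means. For Rgs13 these were Snx9 (0.155), Ugcg (0.194) and Snx2 (0.200), where the SD of Rgs13 itself was 0.464. Snx9, a sorting nexin, was 9.18 ± 1.87 FPKM in Foxo1-deficient cells, 14.7 ± 0.726 FPKM in DZ and 18.4 ± 1.17 FPKM in LZ (SD, n = 3 each). For Rgs10 they were Hpgd (0.323), Cd97 (0.328) and Sdc3 (0.351), against an SD of 0.989. Cd97, an adhesion receptor, was 8.21, 6.87 and 10.9 FPKM in Foxo1-deficient cells, 3.29, 1.59 and 1.26 FPKM in DZ and 1.45, 1.32 and 1.70 FPKM in LZ. Hpgd (1.66, 1.83 and 4.40 FPKM) and Sdc3 (1.05, 2.30 and 4.19 FPKM) reached 1 FPKM only in the Foxo1-deficient libraries. Both were listed at 0 in all 3 LZ libraries and were at most 0.41 and 0.25 FPKM in DZ. They met the filter only through the Foxo1-deficient group, so a profile high in that group was fixed in advance. The likeness was taken over the same libraries that the tests used and is a description.

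**Figure D4:**
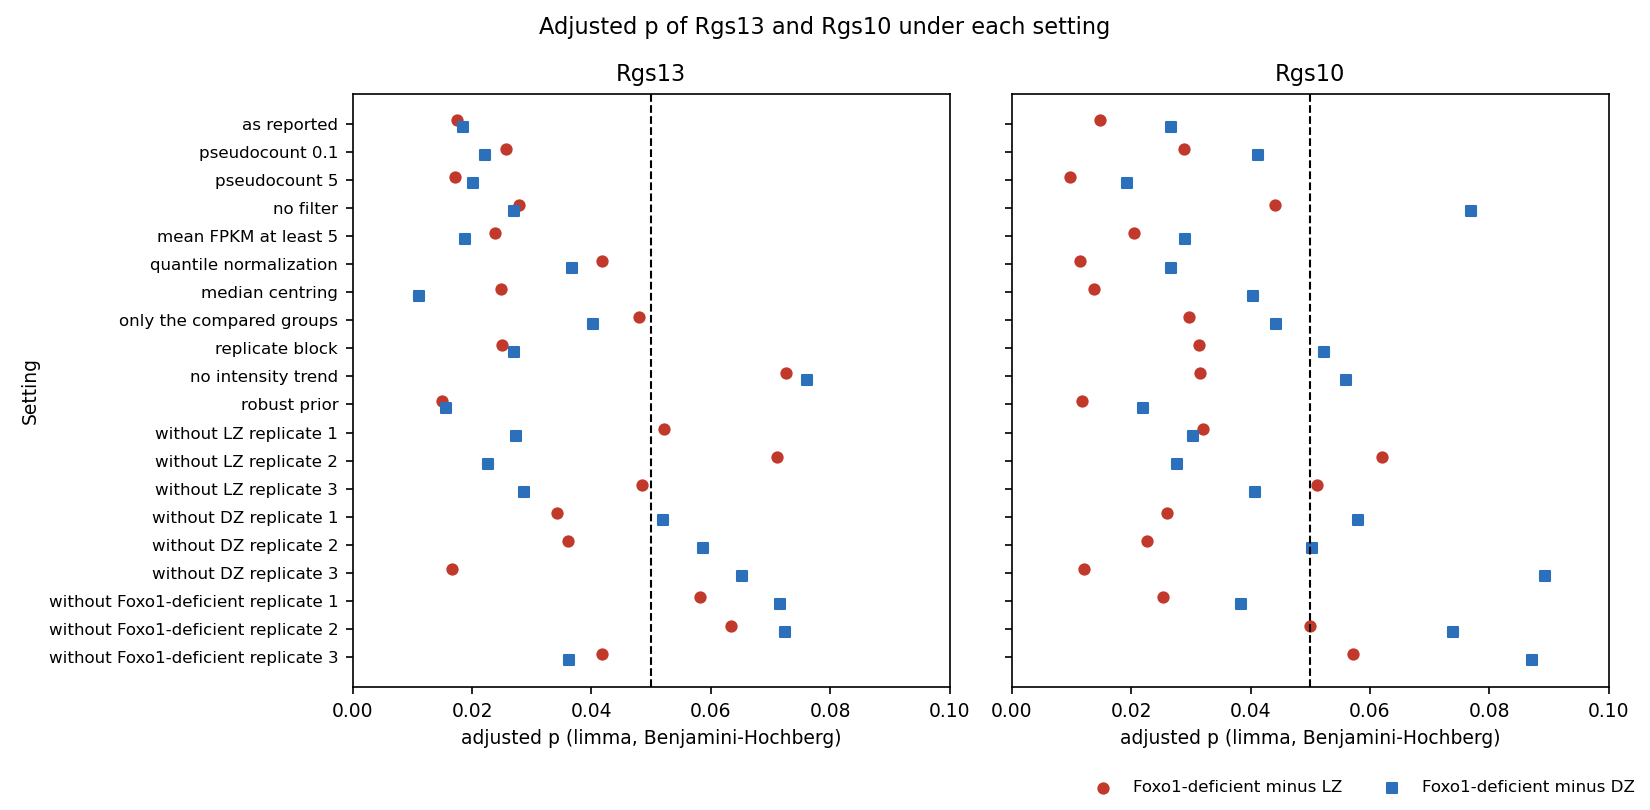
Adjusted p of Rgs13 and Rgs10 from limma against LZ (circles) and against DZ (squares) for the reported fit, 10 other settings and 9 fits without 1 library, with a dashed line at 0.05. The values lie between 0.00979 and 0.0893, on both sides of the line.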

How the data were processed

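RNA of 9 libraries was measured, 3 per group. TRIzol extraction and an NEBNext Ultra kit are given per the labels' protocols. Cufflinks 2.1.1, TopHat2 2.0.8 and mm9 appear in the submitters' processing notes, which state neither their roles nor their order. The deposited values are FPKM, per the file headers, in a separate gene table for each library that also holds interval bounds and a status. The scaling total and the depth are not given in the sources used here.

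Of 23700 entries, 716 of 250 repeated symbols were left out, as were 110 genes with a status other than OK in any library, which left 22874. Genes with FPKM of at least 1 in at least 3 libraries (9982) were tested with limma 3.58.1 in R 4.3.3, on log2(FPKM + 1) with an intensity trend, all groups in 1 fit with no replicate block, adjusted within each comparison. The code was tested on simulated data. The alternatives were pseudocounts of 0.1 and 5, no filter, a mean of at least 5 FPKM, quantile normalization, median centring, the compared groups alone, the replicate block, no trend, a robust prior and leaving out each library. Named were all 10 members, list genes that passed (at most 4 per list and comparison), Foxo1, Cxcr4 and the 3 most similar profiles per passing member (SD of at least 0.25); S1pr2, Gnas and markers were added. Members and lists were chosen with earlier results of these data known. The promoter windows are from RefSeq on GRCm38.p6, and no coordinates were converted between builds. Protein sequences were not used here, and 1 list of related genes is not reported here.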

Additional observations from a re-analysis of the deposited data

How the results depend on the processing

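The directions of Rgs13 and Rgs10 against both zones were the same in the reported fit and in all 19 alternatives, while their calls lay near the threshold. The count of members that passed was 2 against LZ, 2 against DZ and 2 against both zones. With no filter on low genes it was 1 against DZ and 1 against both, and the same with the replicate block, each time without Rgs10. With no intensity trend it was 1 against LZ, 0 against DZ and 0 against both. Without 1 library it was 0 to 2 against LZ, 0 to 2 against DZ and 0 to 1 against both; between DZ and LZ it was 0 in every setting. The cause was not tested. The correlation r across genes of deviations from the group mean was -0.07 to 0.09 for same-numbered samples (0 of 9 pairs over 0.1). For other pairs it was -0.13 to 0.05. With so few samples per group, these values do not settle whether the numbers pair the samples. The replicate block gave 174, 140 and 222 genes for DZ minus LZ, Foxo1-deficient minus LZ and Foxo1-deficient minus DZ, against 191, 157 and 287.

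Over all genes the counts were 191 for DZ minus LZ, 157 for Foxo1-deficient minus LZ, 287 for Foxo1-deficient minus DZ and 72 beyond both zones, and without 1 library 72 to 211, 45 to 141, 120 to 256 and 17 to 42. DZ minus LZ gave 115 with no filter, 126 with the compared groups alone and 79 with no trend. Foxo1-deficient minus LZ gave 97 with a pseudocount of 0.1, 84 with a mean of at least 5 FPKM and 60 with the compared groups alone, and beyond both zones these settings gave 40, 29 and 33. Foxo1-deficient minus DZ gave 191 with a mean of at least 5 FPKM. Of the calls, 55 of 191 were higher in DZ than in LZ and 210 of 287 higher in Foxo1-deficient cells than in DZ. Quantile normalization gave 88 of 206 and 222 of 366, and median centring 121 of 225 and 183 of 389. These moved the all-gene median of DZ minus LZ to 0.007 and 0.026.

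Some changes that passed in no setting changed sign. Under quantile normalization DZ minus LZ of Rgs14 was 0.0723 and Foxo1-deficient minus LZ of Rgs19 0.0383. Under median centring DZ minus LZ was 0.0676 for Rgs13, 0.0629 for Rgs14 and 0.0369 for Rgs19, and Foxo1-deficient minus DZ was -0.0388 for Rgs19, -0.0906 for Gna13 and -0.15 for Gnai2. Without 1 library DZ minus LZ ran from -0.20 to 0.00959 for Rgs13, -0.33 to 0.16 for Rgs14, -0.41 to 0.0496 for Rgs19 and -0.0669 to 0.22 for Gnai2. Foxo1-deficient minus LZ ran from -0.29 to 0.17 for Rgs19 and -0.0468 to 0.11 for Gnai2. Foxo1-deficient minus DZ ran from -0.29 to 0.0295 for Rgs2, -0.0846 to 0.28 for Rgs19, -0.00077 to 0.13 for Gna13 and -0.17 to 0.12 for Gnai2. With 3 libraries per group and no stated depth, small changes of these genes were not resolved.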
